A study of Mus musculus with 9 samples.

Results

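Osteopontin is a secreted phosphoprotein, encoded by Spp1, that binds cells through CD44 and through several integrins. The genes examined were Spp1 and 7 receptor genes: Cd44, Itgav, Itgb1, Itgb3, Itgb5, Itga4 and Itga9. They were taken by symbol, and all 8 were found, each on 1 row, among the 53713 rows of the matrix labelled CluKO. Osteopontin carries an arginine-glycine-aspartate motif that integrins with the αv chain recognise, and a neighbouring stretch, exposed when thrombin cuts the protein, that integrins α4β1 and α9β1 recognise. CD44 is better known as the receptor of hyaluronan. An integrin works as a pair of an α and a β chain, so the receptors follow from which genes of a pair a cell expresses. In the injured liver, osteopontin is known as a product of bile duct cells, of activated stellate cells and of the lipid-associated (also called scar-associated) macrophages that gather where tissue is damaged.

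The study profiled single liver cells of C57BL/6J mice aged 6 to 8 weeks, on a microwell platform that tags the poly-A end of each transcript with a unique molecular identifier (UMI). Wild-type mice received carbon tetrachloride (CCl4), a hepatotoxin that scars the liver when given repeatedly, for 0, 2 or 4 weeks, with 1 sample each. The 6 samples of genotype CluKO lie in 1 matrix whose barcodes name no sample. The series text says that 3 CLUKO mice received human recombinant clusterin during CCl4 injection. How long the CluKO mice received CCl4, and which of the 6 samples received clusterin, was not found in the labels. The rows of the 3 wild-type matrices are not paired with gene names in the files used here, so the 8 genes were not analysed there, and nothing below compares genotypes or CCl4 times. The matrix labelled CluKO counts as 1 sample: no test was possible, and every interval given is a 95% interval for the error of counting alone and says nothing of how mice differ.

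This matrix held 4694 cells and 28912707 UMIs, with a median of 4803.5 UMIs per cell, and 4616 cells were kept. Clu, the gene named in the genotype, was present: 13751 UMIs in 1471 of the 4616 kept cells, or 479 counts per 1000000 UMIs (CPM). It stood at 1843 CPM in hepatocytes and 1551 CPM in mesothelial cells. The genotype label reads CluKO, while the titles of these samples begin with Clu-mes. The labels do not say which part of Clu was deleted, or whether a tag at the 3′ end would report it. Why Clu UMIs are present was not tested, and the cells are called by their genotype label only. Cells were sorted into classes by UMIs of marker genes, none of them among the 8 genes described, and 3971 cells passed the gate of a single lineage. All 6 Kupffer markers, all 6 lipid-associated macrophage markers and all 9 mesothelial markers were present in the classes named for them. The gates were set on these same markers, so their presence is no check on the names. Stellate cells and bile duct cells, both known sources of osteopontin, were nearly absent, with 2 and 0 cells, so the levels below do not speak of them.

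Spp1 lies at chr5:104435118-104441050 of GRCm38 on the plus strand (ENSMUSG00000029304). The stretch of its coding sequence around the integrin-binding motif is printed to show where the integrins named above bind. It covers chr5:104439457-104439516, plus strand, in exon 6 of transcript ENSMUST00000031243.14. The 3 codons in capitals encode arginine, glycine and aspartate and begin at codon 144 of 294, and the reading frame holds this motif 1 time.
Spp1: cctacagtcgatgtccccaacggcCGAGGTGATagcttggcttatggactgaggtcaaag

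Spp1 transcripts were concentrated in lipid-associated macrophages, the cells gated on Gpnmb, Trem2, Atp6v0d2, Fabp5, Cd9 and Mmp12. These 852 cells, 18.5% of those kept, held 79.6% of all 45210 Spp1 UMIs. Their level was 5324 CPM (5269 to 5379), against 35.9 CPM (28.8 to 44.3) in 585 Kupffer cells, the resident macrophages of the liver. A Spp1 UMI was seen in 95.2% of lipid-associated macrophages and 13.5% of Kupffer cells. Deeper cells show a gene more often, so each cell was also thinned to 1000 UMIs, which gave 81.2% (78.4 to 83.8) and 4.27%. The background was read in 263 T cells and neutrophils: 16.3% of them held a Spp1 UMI, 7.60% after thinning, at 62.3 CPM. Of their 70 Spp1 UMIs, 30 lay in 31 neutrophils that also carried macrophage markers. Without those cells, a choice made after seeing the data, the background was 39.7 CPM (28.4 to 54.1), with a UMI in 13.8% of 232 cells and 5.17% after thinning. The Kupffer level and shares lie at or below this background and are not read as expression. The background is not a floor common to all classes: 37 of its 40 Spp1 UMIs came from immature neutrophils. Plasma cells had 19.3 CPM (13.3 to 26.9), below the Kupffer interval. Whether Kupffer cells express Spp1 at a low level was not tested.

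Macrophages that passed 2 gates lay between. Cells with both lipid-associated and Cx3cr1 macrophage markers (85) stood at 2279 CPM, and 64.7% of them held a Spp1 UMI after thinning. Cells with both Kupffer and lipid-associated markers (56) had a similar summed level, 2293 CPM, and the intervals of these classes overlapped. Their cells were uneven: the median cell had 41.3 CPM, against 1297 CPM in the former class, and the highest held 161 UMIs. Whether such cells are single cells was not tested.

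A further 51 cells that passed other combinations of macrophage gates had 1823 CPM. The Cx3cr1 macrophages (91 cells, gated on Cx3cr1, C1qa, C1qb, H2-Aa and H2-Ab1) had 565 CPM (491 to 647) of Spp1, and monocytes (289 cells) had 150 CPM (129 to 174). Both were above Kupffer cells and apart from each other. Both levels came from a minority of cells, since the median cell held no Spp1 UMI in either class. Markers of lipid-associated macrophages moved with these values. Their summed level was 18576 CPM in lipid-associated macrophages, 2991 CPM in Cx3cr1 macrophages, 764 CPM in monocytes and 539 CPM in Kupffer cells, with all 6 markers present in each, and their part in the result was not tested. With double the marker UMIs asked of each gate, the Spp1 level of monocytes was 84.2 CPM.

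Outside the macrophages, Spp1 was low in most classes. Mesothelial cells, the lining cells of the liver surface, had 26.0 CPM where Enpp2 was not detected or held 1 UMI and 18.2 CPM where it held at least 2 UMIs. Plasma cells had 19.3 CPM, erythroid cells 21.4 CPM, granulocyte-monocyte progenitors 40.0 CPM and immature neutrophils 44.7 CPM. From hepatocytes (59.6 CPM) downwards, each class overlapped the next in the order of 14 classes with at least 50 cells. Among smaller classes, 31 neutrophils outside the immature gate had 260 CPM from 30 UMIs, and markers of lipid-associated macrophages were also higher in them, 2200 CPM against 740 CPM in immature neutrophils. Their part in that value was not tested.

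**Figure D1:**
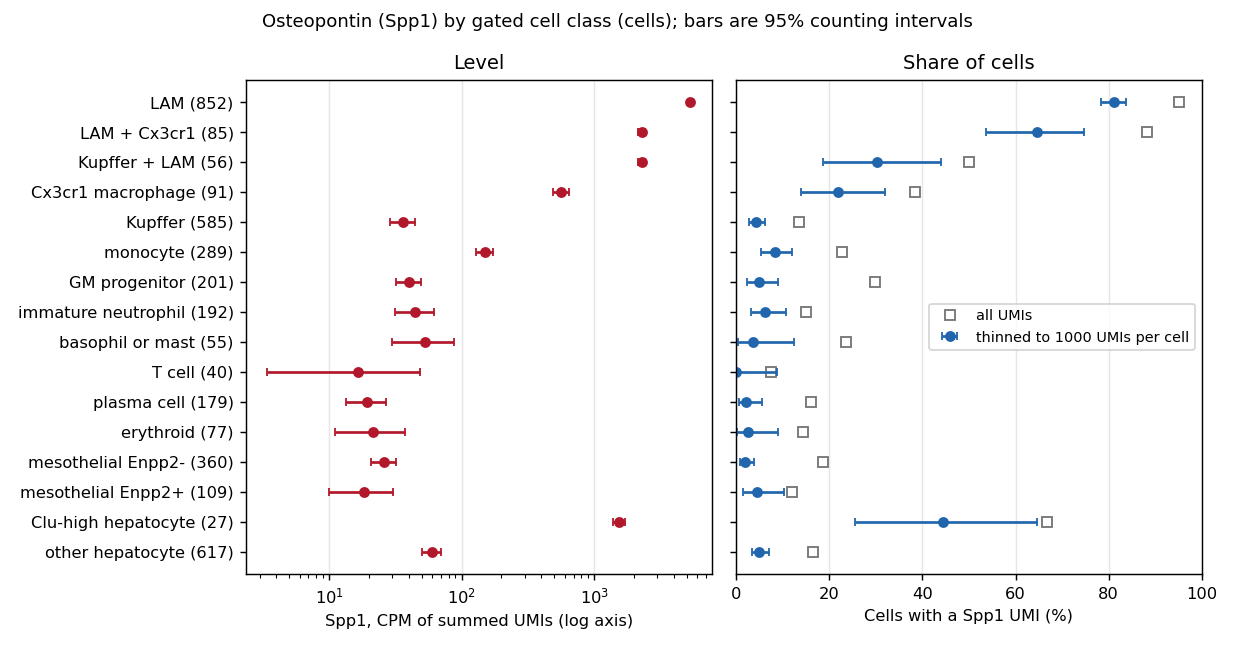
Left, Spp1 in CPM of summed UMIs on a log axis for 16 gated classes, with 95% Poisson intervals; right, the percentage of cells with a Spp1 UMI, unthinned (squares) and thinned to 1000 UMIs per cell (circles, 95% binomial intervals). Numbers of cells stand in brackets, LAM is lipid-associated macrophage and GM granulocyte-monocyte; the 852 LAM cells reach 5324 CPM, and the 27 Clu-high hepatocytes, at 1550 CPM, stand apart from the other hepatocytes.

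Within the lipid-associated macrophages the level was far from even. The median cell had 3157 CPM, the quartiles were 1242 and 6427 CPM, and the highest cell held 442 UMIs. Across all kept cells, the 10% of cells richest in Spp1 held 82.4% of its UMIs. Cells of this class were then ordered by Gpnmb, a glycoprotein of lysosome-rich macrophages, counted after thinning to 1000 UMIs. Spp1 stood at 3777 CPM with 1 to 4 Gpnmb UMIs, 4282 CPM with 5 to 9, 5956 CPM with 10 to 19 and 7181 CPM with 20 or more. The order held for the median cell too, from 1913 to 5866 CPM. The other 5 cells held no Gpnmb UMI after thinning. Gpnmb belongs to the gate, so the range of Gpnmb seen here is cut at its lower end.

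Mmp12, a macrophage elastase that also cuts osteopontin, divided the class in the same direction. Spp1 was 6421 CPM (6334 to 6509) in the 316 cells with at least 10 Mmp12 UMIs and 4318 CPM (4250 to 4388) in the other 536. A count threshold favours deep cells, and Mmp12 is a gate marker as well. Cells in cycle, with at least 2 of 6 proliferation markers and 5 UMIs of them, showed the opposite order: 3702 CPM in 186 cycling cells against 6000 CPM in the 666 others. The share of cells with a Spp1 UMI was nearly the same after thinning, 81.2% in both, so the difference lay in the amount per cell.

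**Figure D2:**
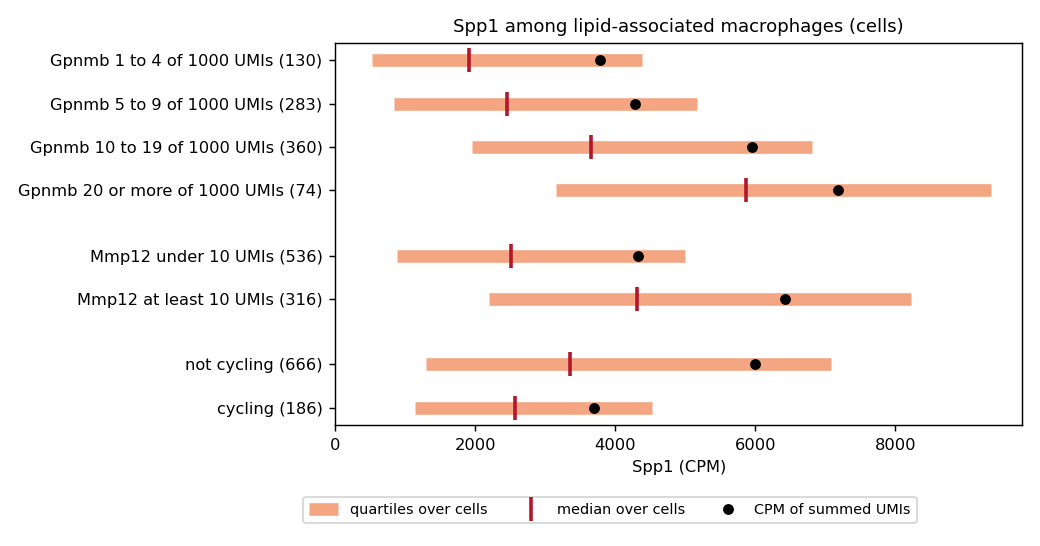
Spp1 in CPM among lipid-associated macrophages split by Gpnmb, by Mmp12 and by cycling markers, with numbers of cells in brackets. Bars span the quartiles over cells, ticks mark the median cell and circles the CPM of summed UMIs; circles rise from 3777 to 7181 CPM over the Gpnmb ranges, and cycling cells lie lower, at 3702 CPM.

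Outside the macrophages, a small class of hepatocytes also had a high Spp1 level. Of 644 hepatocytes, 27 held at least 20 Clu UMIs, and these had 1550 CPM of Spp1 (1394 to 1718) against 59.6 CPM (50.7 to 69.6) in the other 617, a ratio of 26.0 (21.5 to 31.6). The value of the other 617 lies near the background, so this ratio is not read as a fold of expression. The 27 Clu-high cells held 363 Spp1 UMIs, of which 346 lay in 12 cells with at least 10 each. A single cell held 175, the next 23, and without the former the class had 944 CPM. The 12 cells together held 6 Gpnmb, 4 C1qb and 13 Lyz2 UMIs and a median of 81 UMIs of Alb, the albumin gene of hepatocytes. Of the 6 lipid-associated macrophage markers 5 were present in the class, at 239 CPM in sum against 185 CPM in other hepatocytes. Atp6v0d2 was at 0. The higher sum came from Cd9, 162 CPM (115 to 223) against 24.9 CPM (19.2 to 31.7). Gpnmb, Fabp5, Trem2 and Mmp12 were lower than in other hepatocytes, with overlapping intervals. Gpnmb was 38.4 CPM in the class, against 81.1 CPM in other hepatocytes and 11526 CPM in lipid-associated macrophages.

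Bile duct markers were low in the Clu-high hepatocytes: 2 of 7 had a UMI, 21.3 CPM in sum (6.93 to 49.8), from 4 UMIs of Sox9 and 1 of Krt7, while Epcam was at 0. Other hepatocytes had 7.17 CPM of them in sum (4.31 to 11.2), which was lower, though the intervals overlapped. Stellate or fibroblast markers were higher in the Clu-high class, 230.5 CPM in sum (173 to 301) against 7.17 CPM in other hepatocytes. They came from 2 of 7 markers: 24 Reln UMIs, 20 of them in 1 cell, and 30 Ecm1 UMIs in 8 cells, while Lrat, Pdgfrb, Colec11, Hand2 and Rgs5 were at 0. Of these UMIs, 22 of Reln and 25 of Ecm1 lay in the 12 cells with most Spp1. All 10 hepatocyte markers, on which the gate of both classes rests, were present, 16949 CPM in sum against 16526 CPM in other hepatocytes. Depth and proliferation moved with the class. Its cells had a median of 7741 UMIs against 3362, and 74.1% of them carried cycling markers against 49.8%. The part of these markers, of depth and of proliferation in the result was not tested. With the threshold moved to 10 or to 40 Clu UMIs, chosen after seeing the data, the ratio was 17.3 (74 cells) or 33.2 (13 cells).

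The receptor genes were spread more widely than their ligand, and each had its own order of classes. Cd44, on chr2:102811141-102901665, minus strand (ENSMUSG00000005087), encodes the hyaluronan receptor that also binds osteopontin. It was highest in Kupffer cells, 977 CPM (938 to 1017), where 90.1% of cells had a UMI, and this value was apart from every other class. The cells with both Kupffer and lipid-associated markers (355 CPM), Cx3cr1 macrophages (286 CPM), the cells with both lipid-associated and Cx3cr1 markers (274 CPM), lipid-associated macrophages (239 CPM), monocytes (234 CPM) and Enpp2-positive mesothelial cells (233 CPM) followed, and each overlapped the next. Among Kupffer cells, those in which Marco was detected (550) had 999.9 CPM and the 35 without had 568 CPM. Hepatocytes had the lowest level of the 14 classes, 9.80 CPM from 26 UMIs in 617 cells.

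Itgav encodes the αv chain, the partner of β1, β3 and β5 in the receptors that read the arginine-glycine-aspartate motif, and lies on chr2:83724397-83806916, plus strand (ENSMUSG00000027087). Its level formed 2 tiers. The upper held both classes of mixed macrophages (166 and 142 CPM), mesothelial cells (164 CPM Enpp2-negative, 137 CPM Enpp2-positive), Kupffer cells (136 CPM), Cx3cr1 macrophages (103 CPM) and lipid-associated macrophages (101 CPM). The lower began with monocytes at 18.0 CPM (11.3 to 27.2), apart from the upper tier, and ended with plasma cells at 0.567 CPM from 1 UMI. The mesothelial and macrophage classes of the upper tier lay within 2-fold of each other in this shared α chain.

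Itgb3, the β3 chain best known from platelets and osteoclasts (chr11:104608000-104670476, plus strand, ENSMUSG00000020689), was rare, with 236 UMIs in 167 cells. Mesothelial cells held 136 of them. The level was 58.6 CPM (42.8 to 78.5) in Enpp2-positive and 29.2 CPM (23.5 to 35.8) in Enpp2-negative mesothelial cells, the highest values among the 14 classes of at least 50 cells. The interval of the latter overlapped that of basophils and mast cells, 10.6 CPM (2.20 to 31.1) from 3 UMIs, and lay above those of the other larger classes. Among smaller classes, the 15 endothelial cells had 83.0 CPM (22.6 to 213) and the 40 T cells 22.2 CPM (6.05 to 56.9). Each rests on 4 UMIs, and their intervals overlapped those of both mesothelial classes. Lipid-associated macrophages held 4 UMIs in 852 cells, and Kupffer cells, monocytes, Cx3cr1 macrophages and hepatocytes held 0. A count of 0 in 585 Kupffer cells allows up to 0.513% of cells with a UMI at this depth. The 2 cells gated as megakaryocytes or platelets held 23 UMIs, and markers of that type were nearly absent from mesothelial cells, 2.88 and 2.61 CPM in sum with 2 of 5 present in each class.

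Itgb5, the β5 chain (chr16:33829665-33949338, plus strand, ENSMUSG00000022817), was highest in macrophages. It was 531 CPM in cells with both lipid-associated and Cx3cr1 markers and 397 CPM in those with both Kupffer and lipid-associated markers. It reached 522 CPM (450.5 to 600.5) in Cx3cr1 macrophages, 323 CPM (310.1 to 337) in lipid-associated macrophages and 242 CPM (223 to 262) in Kupffer cells, and these 3 were apart from one another. Monocytes had 67.8 CPM, and mesothelial cells 33.9 and 23.1 CPM. Of its 4455 UMIs, 49.1% lay in lipid-associated macrophages. The 469 mesothelial cells held 98 Itgb5 UMIs, beside their 136 of Itgb3.

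Itgb1, the β1 chain that pairs with αv, α4 and α9 (chr8:128685654-128733200, plus strand, ENSMUSG00000025809), was the most widespread of the receptor genes, seen in 2603 cells. Enpp2-positive mesothelial cells (491 CPM), Kupffer cells (427 CPM) and Enpp2-negative mesothelial cells (408 CPM) led the 14 larger classes. Each overlapped the next in this order, but the intervals of the mesothelial classes did not overlap each other. The 40 T cells had 483 CPM from 87 UMIs. Macrophages with lipid-associated markers had 293 CPM. Immature neutrophils (27.8 CPM), plasma cells (25.5 CPM) and hepatocytes (24.5 CPM) were lowest and did not differ beyond counting error. Clu-high hepatocytes had 115 CPM from 27 UMIs.

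The chains that pair with β1 to read the thrombin-exposed stretch differed in their order of classes. Itga4 (chr2:79255426-79333123, plus strand, ENSMUSG00000027009), the α4 chain of homing leukocytes, stood at 186 CPM in Cx3cr1 macrophages, 172 CPM in plasma cells, 170 CPM in monocytes and 152 CPM in erythroid cells, which all overlapped. Kupffer cells had 91.1 CPM and lipid-associated macrophages 62.9 CPM. Mesothelial cells and hepatocytes were at 7 UMIs in 469 cells and 5 UMIs in 644 cells. Among smaller classes, the 40 T cells had 278 CPM (206 to 366), the 42 dendritic cells 203 CPM (140 to 283) and the 10 B cells 399 CPM (218 to 669). The 3 NK cells held 3 UMIs. Neutrophils outside the immature gate (113 CPM) and endothelial cells (20.8 CPM from 1 UMI) were lower.

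Itga9 (chr9:118606690-118901003, plus strand, ENSMUSG00000039115), the α9 chain, was highest in Kupffer cells among the 14 larger classes, at 279 CPM (258 to 300.2). These 585 cells held 56.7% of its 1202 UMIs. Lipid-associated macrophages had 36.6 CPM, Cx3cr1 macrophages 75.7 CPM, monocytes 3.27 CPM from 4 UMIs, and the 201 progenitors none. The 15 endothelial cells had 291 CPM (159 to 488) from 14 UMIs, which overlapped Kupffer cells. Endothelial markers were also found in Kupffer cells, 7 of 8 and 870 CPM in sum, but nearly all from Cdh5 (666 CPM) and Stab2 (194 CPM). Clec4g, at 6268 CPM in endothelial cells, was 2.86 CPM in Kupffer cells, and Egfl7 was at 0.

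**Figure D3:**
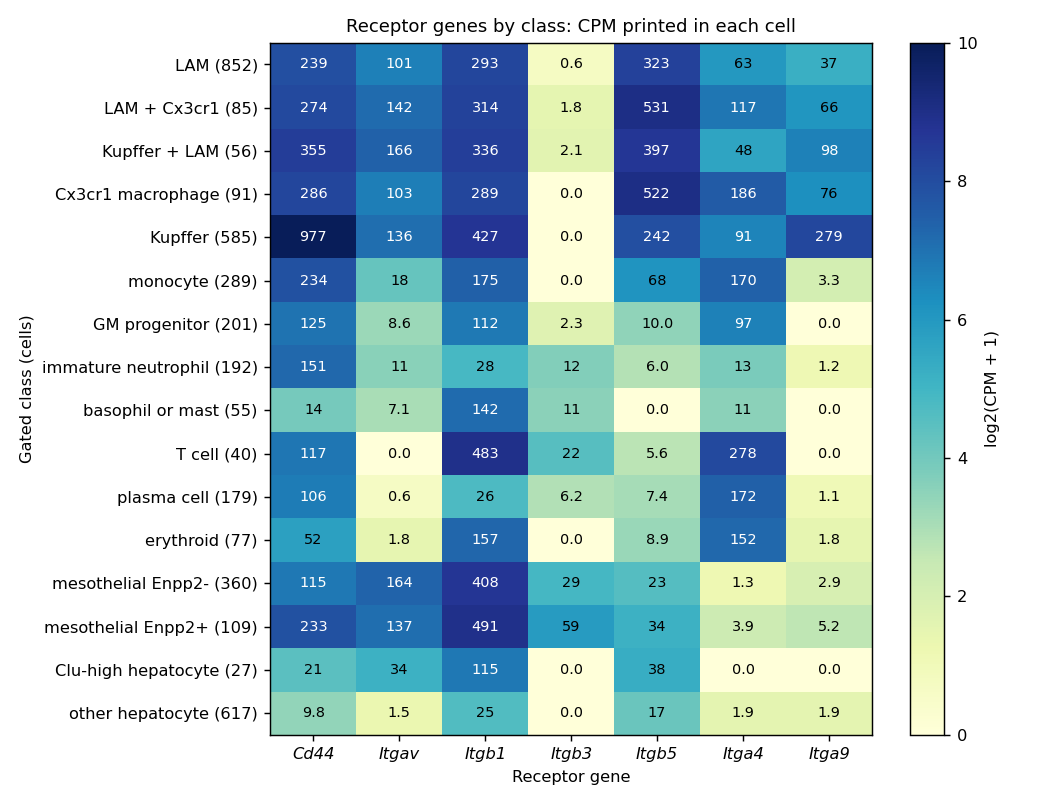
CPM of the 7 receptor genes in 16 gated classes (rows, cells in brackets), printed in each cell and coloured by log2(CPM + 1). Columns should be read one at a time, since transcript length was not corrected for. Among the classes shown, which leave out endothelial cells, Cd44 and Itga9 peak in Kupffer cells. Itgb5 peaks in the classes with Cx3cr1 macrophage markers, and Itgb3 in Enpp2-positive mesothelial cells.

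The overlap of other genes with these limits some of the counts. Exons of Itga4, Itga9 and Itgav overlap the spans of Cerkl, Gm2415 and Gm13684 on the opposite strand, and exons of Spp1 that of Gm42793 on the same strand. Whether the exons of these other genes overlap them was not examined. The labels do not say whether counting used the strand, so these counts are uncertain to that extent.

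To see which receptor pairs could form in a cell, cells with a UMI of both chains were counted. Itgav and Itgb5 were found together in 37.8% of lipid-associated macrophages (34.5 to 41.1) and 22.1% of Kupffer cells, and in 9.72% of Enpp2-negative and 14.7% (8.63 to 22.7) of Enpp2-positive mesothelial cells. The last of these overlapped Kupffer cells (18.8 to 25.6). Itgav and Itgb1 were together in 60.6% of Enpp2-negative mesothelial cells, 37.2% of lipid-associated macrophages and 30.1% of Kupffer cells. Depth differs between these classes, and after thinning to 1000 UMIs the shares of the latter pair were 6.11%, 2.70% and 4.79%. At equal depth Kupffer cells were thus not below lipid-associated macrophages, and the intervals overlapped. For Itgav and Itgb5 the thinned shares were 3.64% in lipid-associated macrophages and 2.56% in Kupffer cells, with overlapping intervals.

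Itgav and Itgb3 were found together in 16.5% (10.1 to 24.8) of Enpp2-positive and 13.1% of Enpp2-negative mesothelial cells. The pair was seen in 2 of 852 lipid-associated macrophages and 0 of 585 Kupffer cells. Thinned to 1000 UMIs, it was left in 1 of 109 Enpp2-positive (0.917%) and 2 of 360 Enpp2-negative cells (0.556%, 0.0674 to 1.99), which overlapped lipid-associated macrophages (0, up to 0.432), so no difference was detectable at that depth. Itga9 and Itgb1 were together in 48.9% of Kupffer cells and 18.2% of lipid-associated macrophages, 7.35% (5.37 to 9.77) and 0.822% (0.331 to 1.69) after thinning, which did not overlap. Itga4 and Itgb1 were together in 39.8% of progenitors, whose median depth was 10190 UMIs, but in 1.49% after thinning. Transcripts of both chains do not show that the pair reached the cell surface.

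**Figure D4:**
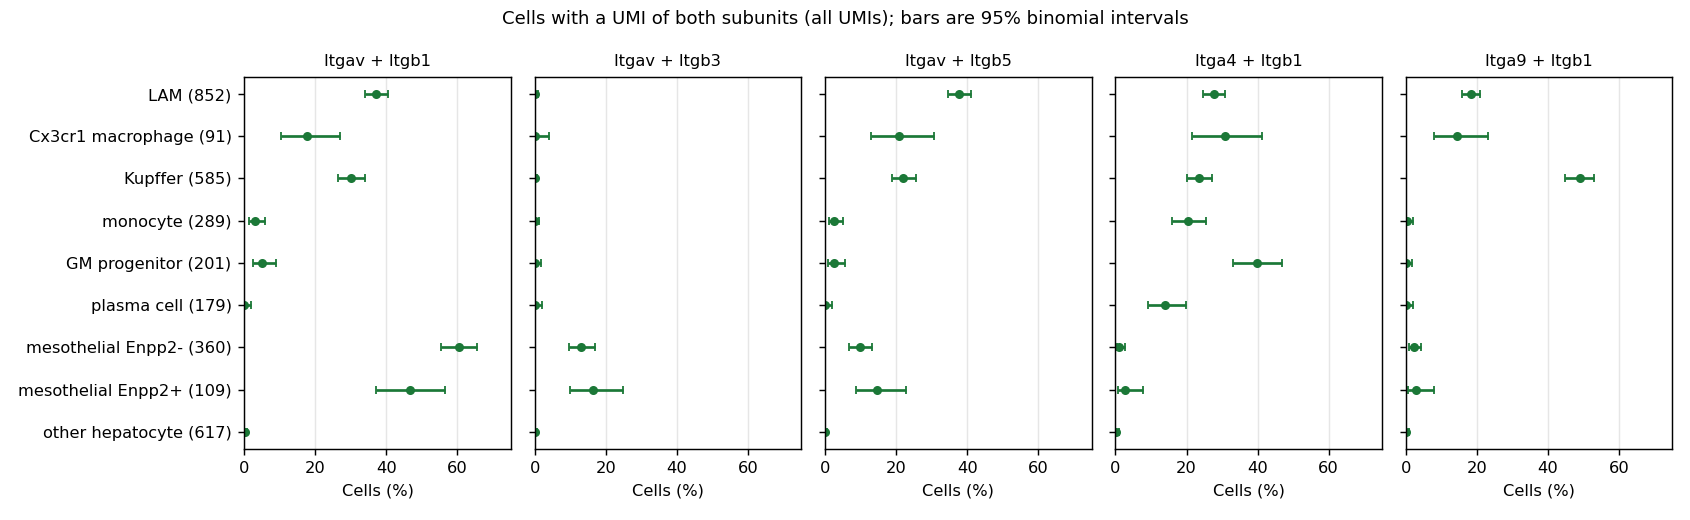
Percentage of cells with at least 1 UMI of both chains of 5 integrin pairs, in 9 classes (cells in brackets), unthinned, with 95% binomial intervals. Itgav with Itgb3 is seen in 13.1% and 16.5% of mesothelial cells and in almost no macrophages; Itga9 with Itgb1 is led by Kupffer cells at 48.9%.

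Lipid-associated macrophages were set against Kupffer cells over the whole gene table, with genes of at least 30 UMIs over both classes and a 2-fold difference in CPM as the threshold. Spp1 was 5324 CPM against 35.9 CPM; since the Kupffer value is at background, their ratio of 148 is not read as a fold of expression, only as higher by at least the 120.2-fold that counting error allows. Cd44 was 4.08-fold (3.83 to 4.35) and Itga9 7.62-fold (6.58 to 8.85) lower. The other chains tested, Itgav, Itgb1, Itgb5 and Itga4, were within 2-fold, and Itgb3 had too few UMIs. So of 7 genes tested 1 was past the threshold upwards and 2 downwards. Of all 10175 genes tested, 7.83% were at least 2-fold higher and 16.6% at least 2-fold lower, 24.4% in all. The median log2 ratio, with 20 CPM added to each side, was -0.42 for the 7 and -0.09 for all genes.

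Genes around osteopontin differed between these classes too. Fam20c, the secretory kinase that phosphorylates osteopontin, was 188 CPM in lipid-associated macrophages and 10.6 CPM in Kupffer cells, a ratio of 17.7 (12.02 to 27.2). Of 7 enzymes tested that act on osteopontin, 3 were higher and 1 lower. Plau, the urokinase, was 3.09-fold higher and Tgm2, a transglutaminase that cross-links osteopontin, was 2.40-fold lower; Mmp12 was 18.7-fold higher, but it belongs to the gate. Of 8 other ligands tested, 6 were higher and 2 lower. The bridging protein Mfge8, an αv ligand that tags dying cells, had 947 UMIs against 3, a ratio of 114 (39.0 to 556). Adam15 (14.2-fold), Thbs1 (13.6-fold) and Vegfa (9.42-fold) were higher as well.

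Vcam1, the α4β1 ligand, was 6.80-fold lower in lipid-associated macrophages, 122 CPM against 833 CPM; it was picked out after its values were seen. Of 5 other α chains tested, 4 were higher and 1 lower. Itga6, a laminin receptor chain, had 809 UMIs against 3, a ratio of 97.7 (33.3 to 475), and Itgax, the CD11c chain, was 10.1-fold higher, while Itgal was 5.47-fold lower. Neither of the 2 other β chains passed 2-fold. Of 12 adaptors and kinases 1 was higher (Vcl, vinculin, 4.02-fold) and 2 lower (Ptk2, focal adhesion kinase, 12.52-fold, and Fermt2, 3.97-fold). Of 7 partners of CD44, Mmp14, a membrane protease, was 8.14-fold higher and none was lower.

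Cx3cr1 macrophages and monocytes were set against the same Kupffer cells, so the 3 comparisons share that side, and with it a Spp1 value at background. The ratios of Spp1 are therefore not read as folds of expression. In Cx3cr1 macrophages, Spp1 was higher, with a ratio of 15.7 (12.2 to 20.4). Itgb5 was 2.16-fold (1.82 to 2.54) and Itga4 2.05-fold (1.54 to 2.69) higher. Cd44 was 3.41-fold and Itga9 3.68-fold lower. That is 3 of 7 upwards against 4.55% of 7895 genes, and 2 downwards against 18.6%. Cd74, a partner of CD44, was 7.12-fold higher and Adam15 11.2-fold higher.

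In monocytes, Spp1 was higher, with a ratio of 4.18 (3.23 to 5.46) over the same Kupffer value at background. Of 7 genes 5 were lower: Itga9 85.2-fold (33.1 to 314, from 4 UMIs), Itgav 7.59-fold, Cd44 4.17-fold, Itgb5 3.57-fold and Itgb1 2.44-fold. Among 8725 genes, 13.1% were higher and 20.2% lower. With double the marker UMIs in each gate, the ratio of Spp1 was 2.37 and that of Itgb5 fell to 0.158 from 0.280. Itga4 was 170 CPM against 91.1 CPM, under 2-fold. Monocytes carried other ligands and chains: Fn1, fibronectin, was 111-fold higher, Thbs1 42.8-fold and Itgb7 29.2-fold, while Vcam1 was 72.8-fold lower.

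Mesothelial cells were compared with all other gated cells. Itgb3 was 11.1-fold (8.24 to 15.1) and Itgav 2.56-fold (2.32 to 2.82) higher, and Itgb1, at 424 CPM against 213 CPM, stood at 1.99-fold, just under the threshold. Spp1 was lower, at 24.4 CPM against 1887 CPM. Its mesothelial value lies at or below the background, so the ratio of 77.2 is not read as a fold of expression. Itga4 was 46.6-fold (22.6 to 116) and Itga9 15.3-fold (8.92 to 28.8) lower, from 7 and 13 mesothelial UMIs. Itgb5 stood at 25.2 CPM against 176 CPM, and Cd44 was 1.89-fold lower. Of the 8 genes 2 were past the threshold upwards and 4 downwards, beside 22% and 20.5% of 13519 genes, or 42.5% in all. Most of the other cells were macrophages, hepatocytes and blood cells.

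The mesothelial cells had integrin chains of their own among the other genes tested. Itgb4, the hemidesmosome β chain, had 178 UMIs against 2, a ratio of 487 (133 to 4056), Itgb8 was 137-fold and Itga3 70.0-fold higher. The leukocyte chains were lower, Itgb2 by 65.0-fold and Itgam by 145-fold (40.2 to 1201, from 2 UMIs). Among other ligands, 5 of 10 were higher and 2 lower: Has1, which makes the hyaluronan that CD44 binds, was 282-fold higher (161 to 550) and Fn1 4.98-fold. Of 16 adaptors and kinases 8 were higher and 2 lower, with Src 19.2-fold and Parva 18.7-fold higher and Fermt3 and Parvg, the leukocyte forms, 54.4-fold and 57.8-fold lower. Ezr, the ezrin that links CD44 to actin, was 14.4-fold higher.

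Enpp2 encodes autotaxin, and it split the mesothelial cells into 109 with at least 2 UMIs and 360 with fewer. Cd44 was 233 CPM against 115 CPM, 2.02-fold (1.68 to 2.42) higher in the former, and Itgb3 58.6 against 29.2 CPM, 2.01-fold (1.37 to 2.90) higher. Both lie at the threshold, and both intervals reach below 2-fold. The ratio of Cd44 was 1.93 with double the marker UMIs, 1.94 with several-lineage cells assigned and 1.79 with Enpp2 asked at 1 UMI. That of Itgb3 was 1.75 without the cells of highest doublet score and 1.90 with Enpp2 asked at 1 UMI. Of 9578 genes, 5.42% were at least 2-fold higher and 8.45% lower. The other 4 genes tested were within 2-fold, and Itga4 and Itga9 had too few UMIs. Has1 was 2.59-fold and Itga10 4.07-fold higher in the Enpp2-positive cells, and Vcam1 4.81-fold and Ezr 2.49-fold lower. The mesothelial markers themselves were lower in that class, 4721 CPM in sum against 8545 CPM, with all 9 present in both; their part in the result was not tested.

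**Figure D5:**
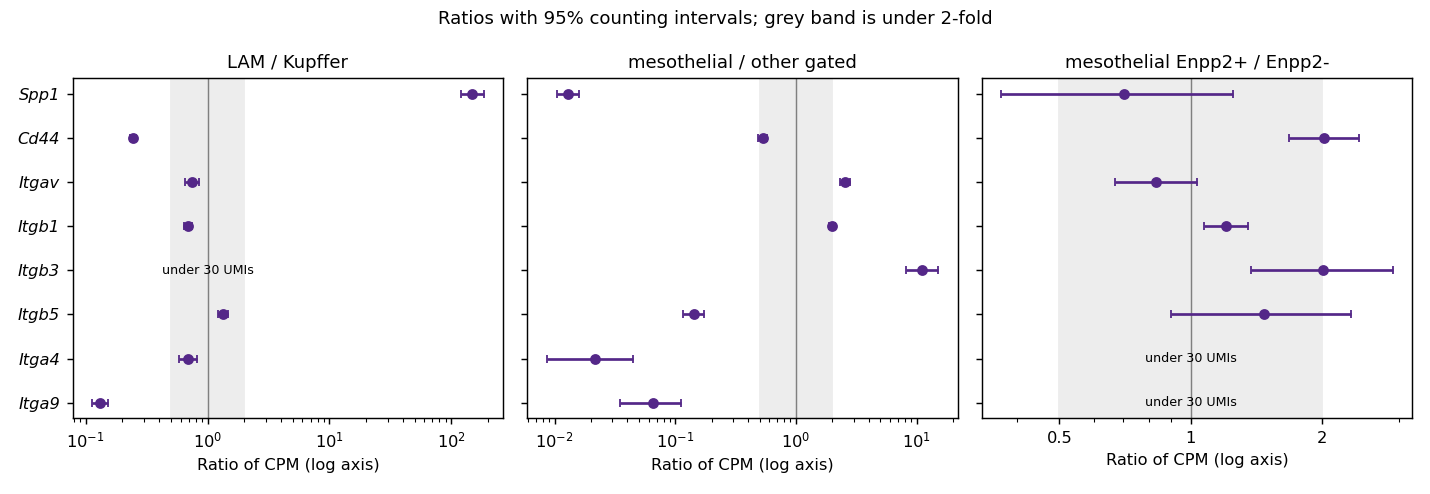
Ratio of CPM of the 8 genes in 3 comparisons, on log axes, with 95% counting intervals; the grey band spans ratios under 2-fold. Spp1 lies far right (148, over a Kupffer value at background) for lipid-associated macrophages against Kupffer cells, Itgb3 leads for mesothelial cells (11.1), and Cd44 and Itgb3 sit at the edge of the band for Enpp2-positive cells.

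In the Clu-high hepatocytes, 4 genes could be tested, Spp1, Itgb1, Cd44 and Itgb5, and all 4 were past 2-fold upwards. Itgb1 was 4.70-fold (2.89 to 7.47) higher than in other hepatocytes, with 11.7% of 6878 genes at least 2-fold higher and 14.7% lower, 26.4% in all. Cd44 and Itgb5 had 5 and 9 UMIs there, with ratios of 2.18 (0.653 to 5.76) and 2.26 (0.973 to 4.69) that counting error does not separate from 1. With Clu at 10 or more UMIs the ratio of Cd44 turned to 0.994. Itgav had 8 UMIs, 7 of them in a single cell.

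Cycling macrophages (306 cells) were compared with the others (1363), pooled over the lipid-associated, Kupffer and Cx3cr1 classes and both mixed classes. Monocytes and the 51 cells with other combinations of macrophage gates were left out. Spp1 was 2927 CPM against 3887 CPM, 1.33-fold lower, Cd44 was 1.58-fold and Itga9 1.75-fold lower. The mix of classes differed between these pools, since 21.8% of lipid-associated macrophages and 11.3% of Kupffer cells were cycling, so the values were also read within a class, an alternative chosen after seeing the data. Within lipid-associated macrophages Cd44 was 233 CPM in cycling cells and 242 CPM in the others, and Itga9 38.2 and 35.9 CPM, with overlapping intervals. Within Kupffer cells Cd44 was 737 CPM (648 to 835) in 66 cycling cells and 1015 CPM (972 to 1059) in 519 others, and Itga9 216 and 288 CPM with overlapping intervals. None of the 7 genes tested passed 2-fold, beside 6.27% of 10420 genes that were higher and 3.92% lower, 10.2% in all. All 3 genes tested were lower in immature than in other neutrophils. Immature neutrophils, gated on Ltf, Ngp, Camp and Cd177, had 5.81-fold less Spp1 (3.47 to 9.67), 3.74-fold less Itgb1 and 2.01-fold less Cd44 than other neutrophils. Macrophage markers moved with these values: Cx3cr1 macrophage markers were 137 CPM in immature and 4175 CPM in other neutrophils (5 of 5 present in both), and Kupffer markers 64.1 CPM (6 of 6) and 641 CPM (5 of 6). Their part in the result was not tested. In that comparison 12% of 2883 genes were higher and 28.8% lower, 40.8% in all, and the 31 other neutrophils make it a weak one. The ratio of Spp1 there was 0.172, and 0.0884 with double the marker UMIs in each gate.

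Genes were then ranked by how closely their level followed each of the 8 over the 14 classes of at least 50 cells, as Pearson's r of log2(CPM + 20) among 11010 genes. These classes come from 1 library and differ in depth, so r is a description. Spp1 was most like Gpnmb (r = 0.988, a gate marker), then Itgax (0.965), Bcl2a1d (0.961), AC101945.2 (0.960) and Fam20c (0.953). Itgav was most like Dab2 (0.985), Fzd7 (0.971) and Mroh1 (0.961), followed by Ano6 and Cxcl16. Itgb5 was most like the cathepsin gene Ctsb (0.979) and Tmem106a, C1qb (a marker of the Cx3cr1 macrophage gate), Abhd12 and Kcnk13.

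For Itga9 the closest were Rasgef1b (0.995), Clec1b (0.992), Rnf180 (0.990), Mrc1 (0.983) and Abcc3 (0.982). Cd44 followed Adar (0.914), Ankfy1, Bicra, Tbc1d23 and Cept1, and Itgb1 followed Dync1h1 (0.962), Erlin2, Leprot, P4ha1 and Birc6. Itga4 had no close match, with Aup1 at 0.844 and Rasa3, Dnajc7, Smchd1 and Necap2 below it. Among the 8 genes, Itgav went with Itgb1 (0.857) and Itgb5 with Itga9 (0.857) and with Spp1 (0.821). Itgb3 ran against Itga4 (-0.65), and against Spp1 (-0.41).

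Cells outside the classes held part of the Spp1 signal. The 208 cells that passed gates of several lineages had 1960 CPM and 8.21% of its UMIs, and the 437 cells that passed none had 753 CPM and 2.71%. For the receptor genes these cells held 4.74% to 8.47% and 3.49% to 8.17% of the UMIs. Several-lineage cells had a median of 7248.5 UMIs, against 3264 in ungated cells. Whether they are doublets was not tested.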

How the data were processed

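Liver cells of 9 mouse samples in 4 groups were profiled with Singleron GEXSCOPE libraries. The authors deposited raw UMI counts, 1 value per gene and cell, and all values in the 4 matrices were whole. GRCm38 is the build per the submitters' processing notes; which aligner, counter, strand setting and cell calling were used is not stated there. Only the matrix labelled CluKO has rows that match the gene table, and it was treated as 1 sample.

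The cell filter asked for 200 or more genes and 20% or less of mitochondrial counts (Python 3.11.15, numpy 2.4.6, scipy 1.17.1, pandas 2.3.3, matplotlib 3.10.9). Gates asked for 2 to 5 different markers and 4 to 20 marker UMIs of a type; the Cx3cr1 gate also asked for 1 Cx3cr1 UMI. The monocyte gate gave way to progenitor, neutrophil, basophil and dendritic gates, and the progenitor gate to basophils. The gate thresholds, and the Enpp2, Clu, Mmp12 and cycling thresholds, were set after marker counts were seen. Cells of several lineages were set aside, and doublets were not removed: they were examined with Scrublet scores (scanpy 1.11.5) as an alternative.

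Counts were summed per class and scaled to 1000000. Levels carry exact Poisson, ratios conditional binomial and shares Clopper-Pearson intervals at 95%, which cover counting error only. Beside shares of 0 stands the upper limit from 3 counts. Ratios were checked on simulated data. The 8 comparisons took genes with at least 30 UMIs. The 8 genes, the marker lists and 6 lists of 73 related genes were chosen with earlier results of these data known. Named genes are the 8, the 5 most like each (none for Itgb3, under 300 UMIs), and at most 4 list genes per list and comparison whose interval lies past 2-fold, largest first. Ranked genes had at least 100 UMIs. Positions and the coding stretch come from the GENCODE M21 annotation of GRCm38.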

Additional observations from a re-analysis of the deposited data

How the results depend on the processing

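The comparisons were recomputed with double the marker UMIs in every gate, stricter cell filters (at least 500 genes and at most 10% mitochondrial counts), several-lineage cells assigned to the lineage with most marker UMIs, without 262 cells of highest Scrublet score (23 of them lipid-associated macrophages), and without cells rich in hepatocyte RNA. Of the summary values 61 stayed and 10 moved. These are levels, shares and counts of genes, for which no direction was scored, so they say nothing of reversals. The level of Spp1 in lipid-associated macrophages was 5424 CPM with double the marker UMIs, 5223 CPM with several-lineage cells assigned and 4825 CPM as the mean over cells, against 5324. Thinned to 2000 UMIs, their share with Spp1 was 88.6% in place of 81.2%, and the share with Itgav and Itgb5 8.69% in place of 3.64%. With 10 UMIs as the minimum, 2233 genes passed 2-fold for Enpp2 (from 1328), 3037 for Clu-high hepatocytes (from 1814), 2557 for neutrophils (from 1176) and 1701 for cycling macrophages (from 1061), since more genes were tested. With an offset of 5 CPM, 23 of the 35 most similar genes were shared. Among values for single genes and classes 393 stayed, 14 moved and 1 reversed: the ratio of Cd44 in Clu-high hepatocytes was 0.994 at 10 or more Clu UMIs, an alternative added after seeing the data, and the cause was not tested. No paired analysis was possible because the CluKO samples share 1 matrix without sample names and no result comes from a test. Itga4 and Itga9 rest on few UMIs in mesothelial cells and hepatocytes, and no Itgb3 UMI was seen in hepatocytes, so these levels are imprecise.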
